A study of Drosophila melanogaster with 12 samples.

Results

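Control females of the ERR[cond.2] stock and of the ERR[cond.19-4] stock, the 2 Drosophila melanogaster stocks in which the estrogen-related receptor gene ERR can be excised, were compared with each other in the absence of heat shock. The comparison used 6 of the 12 RNA-seq libraries of the series, 3 per stock, chosen by labels that name them as no hs controls. Each library held poly(A) RNA of 10 whole adult females that were fed yeast paste and collected when their heat-shocked siblings were 7 d past heat shock. The RNA came from 3 separate experiments, so p-values measure the spread between these libraries. The 6 heat-shocked libraries were used only as further libraries of the same stocks.

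Both stocks carried the heat-inducible recombinase hsflp and the ERR2 allele, a deletion of the ERR coding region that extends into Atg18a and CG7979. ERR[cond.2] females had ERR2 over ERR1, an allele with a small deletion at an exon 2 splice acceptor, and obtained their functional ERR from an FRT-flanked, GFP-tagged BAC transgene. ERR[cond.19-4] females had ERR2 over an endogenous ERR locus flanked by FRT sites. The stocks therefore differed in the source of ERR, in the chromosomes carried and in the background of each stock, and these cannot be told apart. The count table numbers the stocks instead of naming them. Number 2 was read as ERR[cond.2], although the sources used here do not say so.

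ERR is a nuclear receptor known for its control of genes of carbohydrate metabolism. The fat body, the insect counterpart of liver and adipose tissue, secretes yolk proteins, lipoproteins and immune proteins into the hemolymph, whereas the follicle cells of the ovary add vitelline membrane and chorion to the late egg chamber. In whole-female RNA, fewer cells of a type and less RNA per cell cannot be told apart.

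The control libraries held between 17167432 and 20604204 counts. Principal components were computed only on the genes that varied most among the control libraries. The first took 92.2% of the variance of those genes. On it the ERR[cond.19-4] libraries lay between 34.2 and 35.1 and the ERR[cond.2] libraries between −43.9 and −26.3, so the latter were the more dispersed. Markers of male accessory gland and testis summed to at most 0.472 CPM (counts scaled to libraries of 1000000) in any control library and the Y chromosome list was at 0, and no gene of either list was tested. In every control library the yolk protein genes, whose products are female-specific, took at least 2.77% of all counts. The mitochondrial transcript mt:lrRNA took 10.4 to 11.7% of counts in ERR[cond.2] libraries and 7.21 to 9.14% in ERR[cond.19-4] libraries, and the 10 most abundant genes took 19.8 to 24.8% and 13.99 to 16.99%. Both measures moved with the stock, and their part in the results was not tested.

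The stocks differed in a large share of the transcriptome. The edgeR quasi-likelihood test was run on 9713 genes, of which 4128 (42.5%) had a Benjamini-Hochberg adjusted p under 0.05 and are termed called below. In ERR[cond.2] controls 2146 genes (22.1%) were higher and 1982 (20.4%) lower. Differences of at least 2-fold (11.9%) were unevenly divided, with 904 genes (9.31%) higher and 251 (2.58%) lower, and those of at least 4-fold numbered 408 higher (4.20%) and 40 lower (0.412%). At 16-fold or more, 100 genes (1.03%) were higher and 6 (0.0618%) lower. Differences are given as log2 of ERR[cond.2] over ERR[cond.19-4] with the standard error (SE), and levels as CPM scaled by the trimmed mean of M values (TMM). With total counts as library size the median of all genes shifted by −0.187 on the log2 scale, and the calls became 1415 higher and 3174 lower, that is 30.8% higher in place of 52.0%. Small differences of gene groups are therefore to be read relative to that shift.

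**Figure D1:**
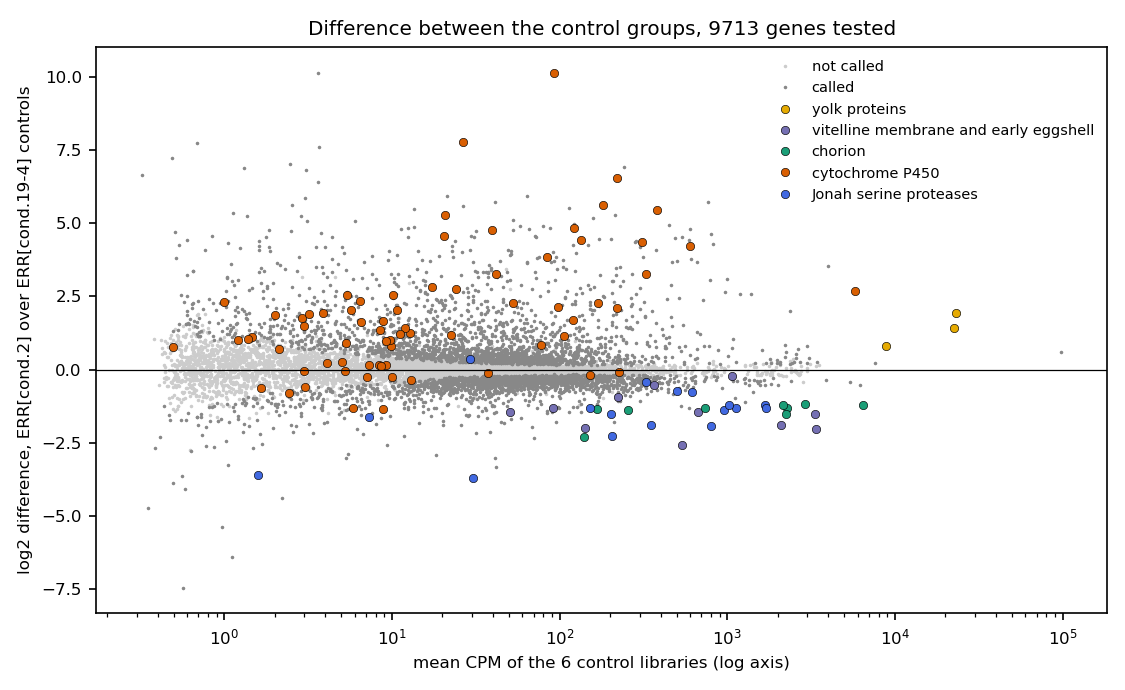
Log2 difference between the control groups (ERR[cond.2] over ERR[cond.19-4]) against the mean CPM of the 6 control libraries on a log axis, for 9713 genes. Darker gray points were called by edgeR, lighter gray points were not, and colored points are members of 5 gene lists. The yolk protein genes lie among the most abundant genes above 0, most cytochrome P450 genes lie above 0, and the chorion, vitelline membrane and most Jonah genes lie below 0.

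The largest differences were in genes all but silent in one stock. Cyp304a1, a cytochrome P450 gene, was at 285, 116 and 152 CPM in ERR[cond.2] controls against 0.0878, 0.238 and 0.151 CPM in ERR[cond.19-4] controls (log2 difference 10.13, SE 0.62, adjusted p = 1.4e-04, edgeR). Its neighbor CG14384 was at 10.9, 5.90 and 4.97 CPM in ERR[cond.2] controls and had no count in any ERR[cond.19-4] library, which makes it at least 154-fold higher against a floor of 3 counts over the group. Cyp6d2 stood at 62.7, 58.5 and 37.6 CPM against 0.176, 0.286 and 0.251 CPM (log2 difference 7.77). Lack of overlap between the groups was a condition for naming the largest differences. Each of the 3 genes was also called between the heat-shocked groups. CG32437 and Tehao, a Toll-related receptor gene, likewise had no count in ERR[cond.19-4] controls and were at least 29.1-fold and 28.7-fold higher in ERR[cond.2] controls. Tehao did not pass the filter on low counts and was not tested. CG18265, at 7.74, 6.97 and 7.15 CPM against 0.0439, 0.0477 and 0 CPM, rested on 2 counts in ERR[cond.19-4] controls. Cyp9h1 (6.56) and Ugt37a1 (5.92), both of detoxification families, were also among the 12 largest.

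Genes far lower in ERR[cond.2] controls were fewer and mostly rare. CG5217 had no count in the ERR[cond.2] libraries and stood at 1.19, 1.24 and 0.955 CPM in ERR[cond.19-4] controls, so it was at least 19.1-fold lower. Its counts were also 0 in all 3 heat-shocked ERR[cond.2] libraries. The cuticle protein gene Ccp84Ab and CG31380 had at most 1 count in any ERR[cond.2] control and a mean of 2.19 and 1.89 CPM in ERR[cond.19-4] controls. blanks, which encodes a double-stranded RNA binding protein (−4.39), and CG10013 (−4.09) were lower as well. Rootletin, which encodes a protein of ciliary rootlets, was among the more abundant, at 10.3, 9.45 and 7.09 CPM against 58.5, 80.6 and 79.5 CPM (log2 difference −3.03, SE 0.18, adjusted p = 5.2e-05, edgeR). CG13947 (−3.33), CG9822 (−3.62), the neuropeptide-like precursor gene Nplp4 (−3.24) and the GABA receptor gene GABA-B-R3 (−3.03) were also lower.

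The smallest p-values fell on genes with little spread within either stock. CG7298, with a predicted chitin-binding domain, was at 95.6, 86.4 and 77.9 CPM against 10.4, 11.8 and 9.40 CPM (log2 difference 3.04, adjusted p = 1.3e-05, edgeR). CG13309 was lowest in p among genes lower in ERR[cond.2] controls, at 11.6, 12.1 and 11.4 CPM against 49.2, 49.4 and 57.3 CPM (log2 difference −2.15, adjusted p = 1.4e-05, edgeR). CG18858 (2.47), CG15721 (1.82), CG9377 (−2.87), a predicted serine protease gene, and CG7953 (−1.30) were likewise separated by stock in every library.

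Fat body transcripts were called in part, some with strong differences. Of 12 fat body genes tested 5 were higher in ERR[cond.2] controls and 0 lower, beside 22.1% and 20.4% of all genes. The list median was 0.50 against 0.00 over all genes tested, and 0.31 without ERR[cond.2] control 1. The number lower was 2 with total counts as library size and 1 without ERR[cond.2] control 1 or 3. Between the heat-shocked groups 5 were higher and 1 lower, and 2 genes were higher in both comparisons. Apoltp, which encodes the lipid transfer particle apolipoprotein, was at 1437, 882 and 1066 CPM against 49.0, 51.6 and 58.3 CPM (log2 difference 4.41, SE 0.20, adjusted p = 5.0e-05, edgeR). The iron carrier gene Tsf1 was at 10911, 2904 and 8266 CPM against 554, 639 and 693 CPM (log2 difference 3.55, SE 0.48, adjusted p = 0.00203, edgeR). Every ERR[cond.2] library thus exceeded every ERR[cond.19-4] library, although ERR[cond.2] control 2 had less than the other libraries of its stock. AkhR, the receptor for adipokinetic hormone, was at 43.2, 23.7 and 19.0 CPM against 6.02, 5.87 and 6.53 CPM (log2 difference 2.22). Rfabg, the precursor of the major hemolymph lipoprotein, differed by 0.73 (adjusted p = 0.0150, edgeR), and that call was lost without ERR[cond.19-4] control 2. Ilp6, a fat body insulin-like peptide gene, was higher by 0.81.

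The lipid storage and synthesis genes of the same list did not pass the test. These were the lipase gene bmm (−0.21), the perilipin gene Lsd-1 (0.27) and the fatty acid synthase gene CG3523 (0.05). The female-specific gene fit (−0.33), NLaz, takeout (listed as to) and the trehalose transporter gene Tret1-1 (0.99, adjusted p = 0.0558, edgeR) did not pass either. Larval serum protein genes were called in 2 of 4 tested. Lsp1beta was at 858, 360 and 483 CPM against 84.2, 132 and 205 CPM (log2 difference 2.01, adjusted p = 0.0110, edgeR) and Lsp1alpha differed by 1.59. Without ERR[cond.2] control 1 neither was called (adjusted p = 0.0845 and 0.0760). Between the heat-shocked groups Lsp1alpha was lower, not higher, in ERR[cond.2] females (−1.33, adjusted p = 6.9e-04, edgeR).

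All 3 yolk protein genes were higher in ERR[cond.2] controls. Yp2 was at 43779, 25637 and 41339 CPM against 8601, 8973 and 11206 CPM (log2 difference 1.94, SE 0.22, adjusted p = 8.9e-04, edgeR). Yp3 was at 40161, 22901 and 35193 CPM against 10572, 11432 and 14463 CPM (log2 difference 1.43, SE 0.23, adjusted p = 0.00325, edgeR). Yp1, the nearest of the 3 to equal levels, was at 14630, 8701 and 10403 CPM against 5894, 6133 and 7209 CPM (log2 difference 0.81, SE 0.19, adjusted p = 0.0143, edgeR). Together they took 8.65, 5.65 and 8.26% of counts in ERR[cond.2] controls and 2.77, 2.84 and 3.37% in ERR[cond.19-4] controls. Fat body and ovarian follicle cells both express these genes, and none of the 3 was called between the heat-shocked groups, where the log2 differences were 0.30, 0.87 and 0.23 for Yp1, Yp2 and Yp3.

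**Figure D2:**
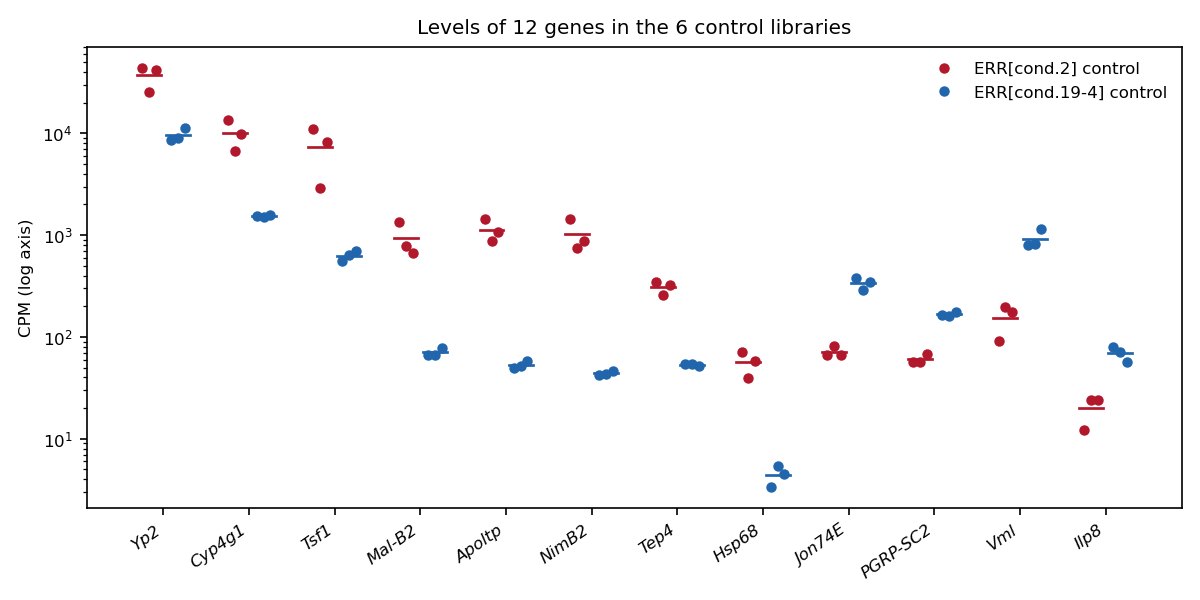
CPM on a log axis of 12 genes in the 3 ERR[cond.2] controls (red) and the 3 ERR[cond.19-4] controls (blue). Points are libraries, in replicate order from left to right, and bars are group means. The 12 genes were picked for display among called genes. The groups do not overlap for any of them, the 8 genes on the left being higher and the 4 on the right lower in ERR[cond.2] controls. Of all 9713 genes tested, 2796 were higher and 2787 lower without overlap.

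Eggshell genes moved the other way. Of 11 vitelline membrane and early eggshell genes 8 were lower in ERR[cond.2] controls and 0 higher (median log2 difference −1.45), and of 9 chorion genes 7 were lower and 0 higher (median −1.32). The vitelline membrane-like gene Vml was at 90.4, 198 and 174 CPM against 795, 816 and 1143 CPM (log2 difference −2.58, SE 0.32, adjusted p = 0.00138, edgeR). Vm34Ca, a vitelline membrane gene, was at 824, 1905 and 1289 CPM against 4761, 5082 and 6508 CPM (log2 difference −2.02, SE 0.31, adjusted p = 0.00313, edgeR). For each of these genes ERR[cond.2] control 1 was lowest and the groups stood clearly apart. Vm26Ab (−1.90), Vm26Aa (−1.50), Vm26Ac (−1.45) and psd (−1.99), which lie together on chromosome 2L, were also lower. The eggshell gene dec was not called (−0.22).

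Chorion genes were called less firmly. Cp15 was at 2596, 4696 and 4337 CPM against 7367, 10048 and 9619 CPM (log2 difference −1.22, SE 0.24, adjusted p = 0.00830, edgeR). Cp7Fc, of the X chromosome cluster (log2 difference −2.30), Cp18 (−1.32), Cp16 (−1.30) and Cp19 (−1.51) were lower too, whereas Cp36 (−1.18) and Cp38 had adjusted p of 0.0639 and 0.0579 (edgeR). All 9 chorion genes were without overlap between the groups, and lower in ERR[cond.2] females, as were 28.7% of all genes tested. The number called fell to 3 without ERR[cond.2] control 3 and to 2 when every gene with at least 1 count was tested, and it was 9 by DESeq2. Between the heat-shocked groups 0 of 9 chorion genes and 1 of 11 vitelline membrane and early eggshell genes were called.

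Germline genes were not displaced as a group. The summed level of the germline list was 3331, 3317 and 3215 CPM against 3200, 3271 and 3339 CPM. Of 17 genes tested 4 were higher (23.5%) and 5 lower (29.4%), beside 22.1% and 20.4% of all genes (median −0.04). The translational repressor gene nos was higher, at 248, 240 and 219 CPM against 140, 134 and 136 CPM (log2 difference 0.79, SE 0.07, adjusted p = 1.3e-04, edgeR), and remained so between the heat-shocked groups (0.31, adjusted p = 0.0152, edgeR). The differentiation factor gene bam was lower, at 17.3, 14.6 and 12.0 CPM against 24.4, 26.5 and 26.2 CPM (log2 difference −0.81, adjusted p = 0.00223, edgeR), and was also lower between the heat-shocked groups (−1.04, adjusted p = 8.5e-04, edgeR). otu (−0.54) and swa (−0.52) were lower, exu (0.44) and vas (0.31) were higher, and osk was not called (−0.00, adjusted p = 0.987, edgeR). The call of vas was lost with total counts as library size (adjusted p = 0.248). Leaving out any 1 of the ERR[cond.19-4] controls reduced the lower germline genes to 3.

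DNA replication genes included 8 of 18 that were lower and 2 that were higher (median −0.13), with small differences. The MCM helicase genes dpa (−0.45), Mcm5 (−0.42) and Mcm7 (−0.46) and the licensing factor gene dup (−0.76) were lower, and Mcm3 was higher (0.35). The number lower was 5 without ERR[cond.2] control 2 or ERR[cond.19-4] control 1 or 2, and Mcm3 lost its call with total counts as library size (adjusted p = 0.171). In the piRNA pathway 4 of 16 were lower, among them piwi (−0.35), and 2 higher, with 2 lower without ERR[cond.19-4] control 1 or 2, and 0 higher and 9 lower with total counts as library size.

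**Figure D3:**
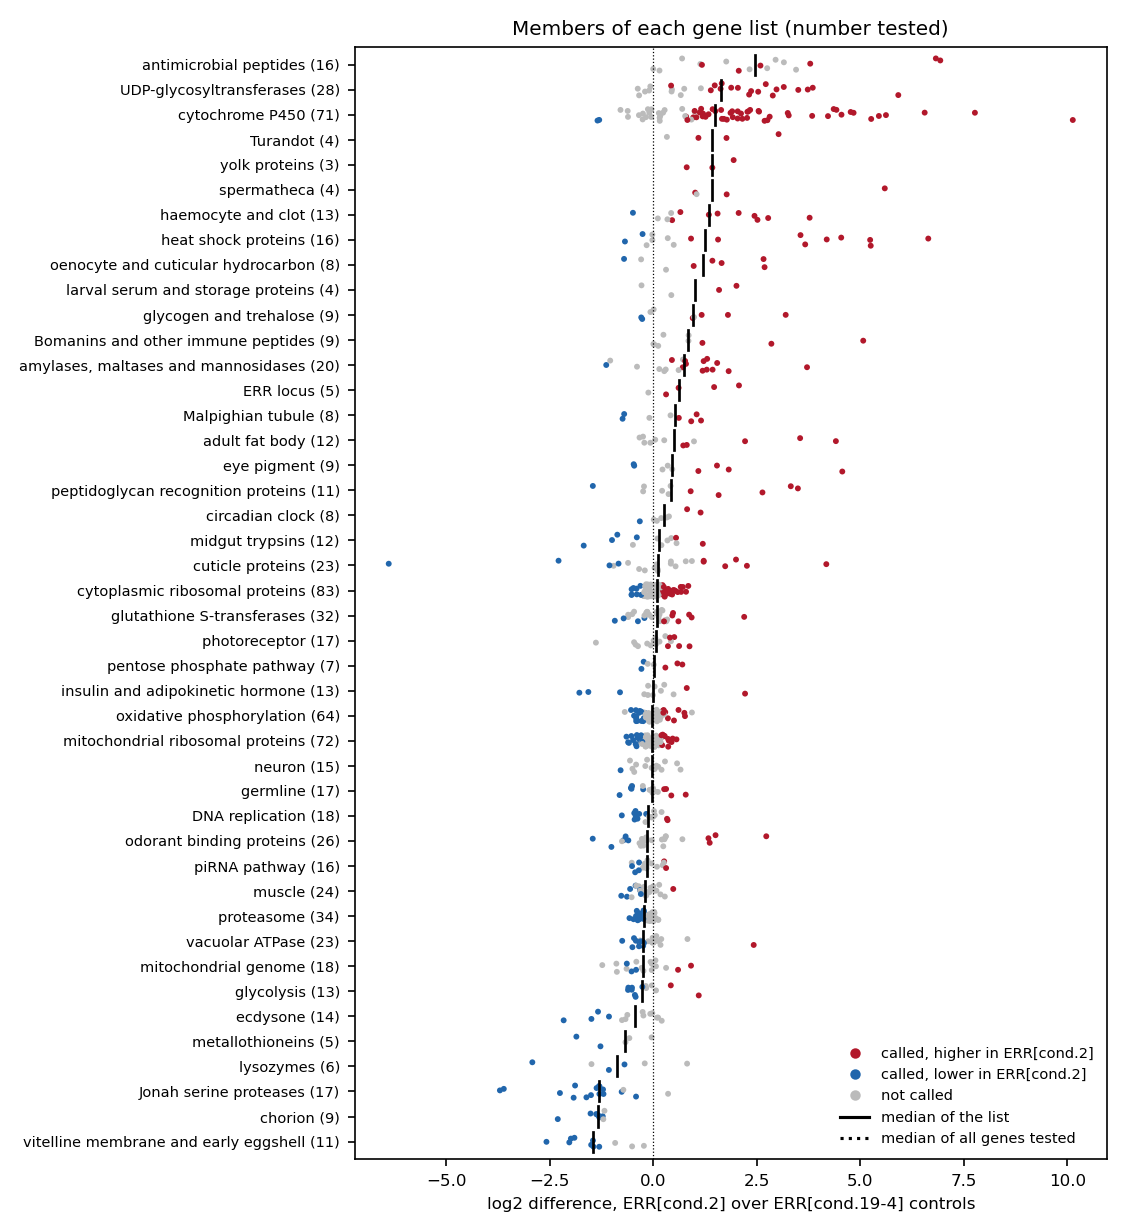
Log2 difference between the control groups (ERR[cond.2] over ERR[cond.19-4]) of each tested member of the gene lists with at least 3 members tested, ordered by list median. Red and blue points were called higher or lower in ERR[cond.2] controls by edgeR, gray points were not called, black bars are list medians, and the dotted line is the median of all genes tested. Eggshell and Jonah lists lie at the lower end and antimicrobial peptide, UDP-glycosyltransferase and P450 lists at the upper end.

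Digestive genes went in different directions by family. Of 17 Jonah genes, which encode midgut serine proteases, 15 were lower in ERR[cond.2] controls and 0 higher (median −1.31). Their summed level was 5881, 6383 and 4857 CPM against 12474, 12315 and 16348 CPM. Jon74E was at 65.9, 80.8 and 66.4 CPM against 383, 289 and 343 CPM (log2 difference −2.25, SE 0.13, adjusted p = 4.2e-05, edgeR), and Jon65Aii at 4.17, 6.26 and 2.69 CPM against 64.3, 47.7 and 58.3 CPM (log2 difference −3.70, SE 0.28, adjusted p = 2.4e-04, edgeR). Jon25Bi (−1.92) and the abundant Jon99Ciii (−1.31) were lower as well, and only Jon44E and Jon99Fii of the family were not called. Jonah genes occur in near-identical copies, so reads may have been divided among them. Of the 17, 6 were also lower between the heat-shocked groups.

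Trypsin genes of the midgut moved in both directions, with 2 of 12 higher (16.7%) and 4 lower (33.3%), beside 22.1% and 20.4% of all genes. thetaTry was at 23.4, 30.8 and 18.8 CPM against 69.5, 75.8 and 88.2 CPM (log2 difference −1.68), and kappaTry at 111, 64.8 and 52.6 CPM against 31.7, 36.2 and 31.6 CPM (adjusted p = 0.0142, edgeR). Without ERR[cond.2] control 1 thetaTry alone was called lower, and without ERR[cond.2] control 2 or ERR[cond.19-4] control 1 or 3 the number was 2. The number higher was 1 without any 1 of the ERR[cond.19-4] controls and with total counts as library size. Of 6 lysozyme genes 3 were lower, including LysE (−2.92) and LysD (−1.07), and 0 higher.

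Carbohydrate-digesting enzymes were mostly higher, with 12 of 20 amylase, maltase and mannosidase genes higher and 1 lower (median 0.75), or 3 lower without ERR[cond.2] control 1. Between the heat-shocked groups 3 of the 20 were higher and 2 lower. The maltase gene Mal-B2 was at 1332, 786 and 672 CPM against 66.9, 66.9 and 78.5 CPM (log2 difference 3.72, SE 0.28, adjusted p = 2.6e-04, edgeR). Amy-d, an amylase gene, was at 1077, 744 and 999 CPM against 350, 383 and 416 CPM (log2 difference 1.29), whereas its near-identical copy Amy-p had 0.27 (adjusted p = 0.0698, edgeR). Mal-A1 (1.22), the lysosomal mannosidase gene LM408 (1.82) and tobi, an alpha-glucosidase gene known to respond to insulin and adipokinetic hormone signals, were higher.

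Metabolic enzymes downstream of sugar uptake were divided by pathway. Of 13 glycolytic genes 7 were lower and 2 higher (median −0.26). Gapdh2 (−0.44), Tpi (−0.42), Pfk (−0.52), Pgi (−0.61) and the pyruvate kinase gene PyK (−0.60) were lower, and Pgk (0.43) and the fat body hexokinase gene Hex-C (1.10) higher. Of 9 glycogen and trehalose genes 4 were higher and 2 lower. The trehalase gene Treh was at 699, 369 and 446 CPM against 149, 138 and 146 CPM (log2 difference 1.81, adjusted p = 0.00169, edgeR), and Tps1 (1.17), Pgm (0.96) and CG9485, a predicted glycogen debranching enzyme gene (3.20), were also higher. In the pentose phosphate pathway 3 of 7 were higher (42.9%) and 2 lower (28.6%), beside 22.1% and 20.4% of all genes. The number lower was 0 without ERR[cond.19-4] control 1 or 3 and 1 without ERR[cond.19-4] control 2.

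Among the lists, that of cytochrome P450 genes held the most calls. Of 71 cytochrome P450 genes tested 48 were higher and 2 lower in ERR[cond.2] controls (median 1.50), with 85 such genes in the table. The number lower was 1 to 4 when 1 library was left out, 4 without ERR[cond.2] control 1 or 2, and 8 with total counts as library size. Their summed level was 23785, 11733 and 15753 CPM against 2786, 2760 and 2830 CPM. Most of this sum came from Cyp4g1, the oenocyte enzyme that forms cuticular hydrocarbons, at 13509, 6705 and 9746 CPM against 1549, 1510 and 1580 CPM (log2 difference 2.69, SE 0.25, adjusted p = 5.2e-04, edgeR). Cpr, which encodes the reductase that supplies P450 enzymes with electrons, was at 1940, 1303 and 1809 CPM against 273, 272 and 252 CPM (log2 difference 2.67, SE 0.15, adjusted p = 4.7e-05, edgeR). Cyp9h1 was at 666, 257 and 383 CPM against 4.74, 4.96 and 4.12 CPM, and Cyp6g1, known for insecticide resistance, at 925, 390 and 461 CPM against 59.5, 68.1 and 55.9 CPM (log2 difference 3.27). The 33 P450 genes higher between the heat-shocked groups, of 73 tested there, were all among the 48, and 5 were lower there.

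UDP-glycosyltransferases, which conjugate the products of such oxidation, showed 18 of 28 genes higher and 0 lower (median 1.64). CG4302 was at 857, 442 and 454 CPM against 40.7, 37.8 and 42.7 CPM (log2 difference 3.85, SE 0.29, adjusted p = 2.7e-04, edgeR). Of 32 glutathione S-transferase genes 7 were higher (21.9%) and 4 lower (12.5%), beside 22.1% and 20.4% of all genes (median 0.08). With total counts as library size 4 were higher and 10 lower. GstD2 was at 16.6, 18.5 and 17.7 CPM against 3.47, 4.77 and 3.27 CPM (log2 difference 2.20, adjusted p = 1.0e-04, edgeR), and GstE3 was lower (−0.93). Of 5 metallothionein genes MtnD (−1.85) and MtnE (−1.27) were lower. MtnD lost its call without ERR[cond.2] control 1 (adjusted p = 0.0502).

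Hemocyte and clotting genes were higher in 9 of 13 and lower in 1 (median 1.35). fon, which encodes the clot protein fondue, was at 1605, 914 and 884 CPM against 77.8, 78.0 and 92.1 CPM (log2 difference 3.78, SE 0.27, adjusted p = 2.2e-04, edgeR). The phagocytic receptor genes eater (2.78) and NimC1 (2.52) and the matrix genes Pxn (2.07) and Ppn (2.45) were higher. Hml, a defining plasmatocyte marker, differed less, at 24.5, 21.6 and 23.2 CPM against 19.0, 14.5 and 16.9 CPM (log2 difference 0.46, adjusted p = 0.0166, edgeR). The crystal cell genes PPO1 (0.43) and PPO2 (0.11) were not called, and the transcription factor gene srp was lower (−0.49), though not without ERR[cond.2] control 1 or 3 or ERR[cond.19-4] control 2 or 3.

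Further families of secreted proteins were examined after their values had been seen. All 8 Nimrod genes tested were higher in ERR[cond.2] controls (median 3.87), among them NimB2 at 1445, 754 and 880 CPM against 42.7, 43.0 and 46.6 CPM (log2 difference 4.54). All 6 Idgf genes, which encode chitinase-like growth factors, were higher (median 2.90). CG5210, the most abundant of the 6, was at 3013, 1643 and 2431 CPM against 381, 382 and 415 CPM (log2 difference 2.59, adjusted p = 3.8e-04, edgeR), and Idgf4 was at 2914, 1341 and 1836 CPM against 340, 326 and 345 CPM. All 6 were also higher between the heat-shocked groups.

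Among neprilysin-like peptidase genes 18 of 23 were higher and 0 lower (median 3.87), and the same number, 18 of 23, were higher between the heat-shocked groups. CG14526 was at 766, 374 and 471 CPM against 20.9, 27.5 and 30.7 CPM (log2 difference 4.35, SE 0.32, adjusted p = 2.4e-04, edgeR). Serpin genes were higher in 12 of 15, including nec (3.52), which restrains the Toll pathway, Spn43Ab (3.69) and Spn28Dc (4.51). Between the heat-shocked groups 7 of 18 genes tested with the serpin domain label were higher and 1 lower. The 18 included the noncoding RNA gene CR45272, which was not called. All 4 thioester protein genes tested were higher, with Tep4 at 345, 257 and 321 CPM against 54.0, 54.3 and 52.2 CPM (log2 difference 2.52, SE 0.11, adjusted p = 1.4e-05, edgeR).

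Antimicrobial peptide genes varied among the ERR[cond.2] controls. AttC was at 480, 76.3 and 879 CPM against 7.68, 1.34 and 2.51 CPM (log2 difference 6.93, SE 1.35, adjusted p = 0.0156, edgeR), and its call was lost without ERR[cond.2] control 1 (adjusted p = 0.0522). In all, 6 of 16 were higher and 0 lower (median 2.46), but 3 without ERR[cond.2] control 1 and 13 without ERR[cond.2] control 2, the library with the lowest summed level of these genes (329 CPM against 1083 and 1856 CPM). Def was at 30.5, 22.4 and 30.2 CPM against 8.12, 5.72 and 5.93 CPM (log2 difference 2.07). Drs did not pass (0.15), nor did Dpt, DptB, Dro and Mtk, whose log2 differences were at least 2.33. Between the heat-shocked groups 0 of 15 were higher and 1 lower (median −0.56). Of 9 Bomanin and other immune peptide genes 3 were higher, with 1 without ERR[cond.2] control 1 or ERR[cond.19-4] control 2 and 6 without ERR[cond.2] control 2.

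Recognition genes were steadier than the peptides when a control library was left out. Of 11 peptidoglycan recognition protein genes 5 were higher and 1 lower, and those fits gave 5 to 6 higher and 1 lower. Between the heat-shocked groups, however, 2 of 12 were higher and 4 lower. PGRP-SA, a sensor upstream of Toll, was at 83.0, 41.7 and 51.1 CPM against 6.50, 5.82 and 5.18 CPM (log2 difference 3.32). PGRP-SC2, a gut amidase that degrades peptidoglycan, was lower, at 56.4, 57.2 and 68.3 CPM against 164, 160 and 175 CPM (log2 difference −1.46, SE 0.09, adjusted p = 3.5e-05, edgeR), and also between the heat-shocked groups (−1.56, adjusted p = 0.0129, edgeR). The stress genes TotM (3.03), TotC (1.77) and TotA (1.09), 3 of 4 Turandot genes tested, were higher.

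Heat shock protein genes differed although no control had been heat shocked. Of 16 tested 9 were higher and 2 lower in ERR[cond.2] controls (median 1.24). Hsp68 was at 71.7, 39.1 and 58.4 CPM against 3.38, 5.39 and 4.52 CPM (log2 difference 3.67, SE 0.28, adjusted p = 2.8e-04, edgeR). Hsp70Ab was at 8.04, 3.25 and 5.55 CPM against 0.0439, 0.191 and 0.201 CPM (log2 difference 5.24). The Hsp70 copies are nearly identical, so their separate values are uncertain, and with a minimum of 10 counts in every library 3 members were called higher. Hsp23 was higher (1.57), Hsp27 lower (−0.68), and Hsp83, by far the most abundant, had 0.35 (adjusted p = 0.0539, edgeR). Without ERR[cond.2] control 2 or ERR[cond.19-4] control 1 or 2 the number lower was 1.

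Other tissues gave smaller groups. Of 8 oenocyte and cuticular hydrocarbon genes 5 were higher and 1 lower, among them the female desaturase gene Fad2 at 506, 268 and 340 CPM against 142, 137 and 134 CPM (log2 difference 1.43). Of 8 Malpighian tubule genes 4 were higher, including the urate oxidase gene Uro (1.16), and 2 lower, of which 1 was left without ERR[cond.2] control 3 or ERR[cond.19-4] control 1 or 3. The spermathecal protease gene Send2 was at 81.4, 38.7 and 36.7 CPM against 0.747, 0.525 and 2.01 CPM (log2 difference 5.59), and 3 of 4 spermathecal genes tested were higher. Gld, one of them, lost its call without ERR[cond.2] control 1 (adjusted p = 0.0977) or any of the ERR[cond.19-4] controls (0.0659 to 0.101).

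Of 17 photoreceptor genes 5 were higher and 0 lower, but 2 and 4 with total counts as library size, and 2 were lower without ERR[cond.2] control 1 or ERR[cond.19-4] control 2. Muscle genes were lower in 6 of 24 and higher in 1, with Act87E (−0.77) and Prm (−0.63) the furthest down, and total counts as library size gave 15 lower. Neuron genes were called in 1 of 15, in 0 without ERR[cond.19-4] control 1 or 3 and in 2 without ERR[cond.2] control 1. Odorant binding proteins were called in 9 of 26 tested, 4 higher (15.4%) and 5 lower (19.2%), and the carrier genes Obp99b (2.73) and Obp99c (1.51) were among those higher. The number lower was 2 without ERR[cond.19-4] control 2 and 3 without ERR[cond.19-4] control 3. Cuticle protein genes were mostly undetected, with 6 higher (26.1%) and 4 lower (17.4%) of 23 tested and 125 in the table.

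Of 13 insulin and adipokinetic hormone genes 2 were higher (15.4%) and 3 lower (23.1%), beside 22.1% and 20.4% of all genes. Ilp8, a relaxin-like peptide gene expressed by follicle cells at ovulation, was lower, at 12.2, 24.2 and 24.1 CPM against 80.3, 71.0 and 57.1 CPM (log2 difference −1.78, SE 0.27, adjusted p = 0.00320, edgeR). Ilp7 (−1.56) and Akh (−0.80) were lower, whereas the brain peptide genes Ilp2 (0.04), Ilp3 (−0.00) and Ilp5 (0.49) were not called. In the ecdysone list 4 of 14 were lower (28.6%, beside 20.4% of all genes) and 0 higher (median −0.44). These were spo, an ecdysone synthesis gene (−2.16), and the response genes br (−1.33), Hr4 (−1.49) and Eip74EF (−1.07). None of the 14 was called between the heat-shocked groups. Of 8 clock genes vri (1.15) and tim (0.82) were higher and cyc (−0.32) lower.

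Proteasome genes were lower in 18 of 34 and higher in 0 (median −0.22), for example Rpt5 (−0.57), and vacuolar ATPase genes were lower in 10 of 23 (median −0.24), for example Vha55 (−0.75), and higher in 1, Vha100-5 (2.43). Cytoplasmic ribosomal protein genes were higher in 28 of 83 and lower in 8 (median 0.09), with RpL8 at 0.79 and RpL23 at 0.85. With total counts as library size this became 10 higher and 22 lower, and without ERR[cond.2] control 2 or ERR[cond.19-4] control 1 or 2 the number higher was 18, 14 and 15. The number lower was 4 without any 1 of the ERR[cond.19-4] controls and 17 in the joint fit of 12 libraries. Oxidative phosphorylation genes were higher in 9 (14.1%) and lower in 14 (21.9%) of 64, and mitochondrial ribosomal protein genes higher in 11 (15.3%) and lower in 14 (19.4%) of 72, beside 22.1% and 20.4% of all genes. The numbers higher fell to 4 and 6 without ERR[cond.19-4] control 1, and with total counts as library size 28 and 29 were lower. Of 18 transcripts of the mitochondrial genome 2 were higher (11.1%) and 3 lower (16.7%), but 10 were lower without ERR[cond.2] control 1.

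Pigment genes, which many stocks carry as markers, included 4 of 9 higher (44.4%) and 2 lower (22.2%), beside 22.1% and 20.4% of all genes. The body color gene y was at 1.93, 1.36 and 1.60 CPM against 0.176, 0 and 0 CPM (log2 difference 4.57, adjusted p = 0.00170, edgeR). It was at 1.23, 1.81 and 1.43 CPM against 0, 0.147 and 0.0501 CPM in the heat-shocked groups. The eye color genes v (1.54), ry (1.09) and bw (1.83) were higher and w was not called (0.46, adjusted p = 0.321, edgeR).

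At the ERR locus on chromosome 3L the alleles themselves differ between the stocks. Of the 5 genes in the list made for the locus 4 were higher, namely ERR, CG7979, Atg18a and mthl7. The remaining gene, mthl5, was not called and was not among the neighbors of ERR examined here. ERR (8183361 to 8186671, minus strand) was at 8.52, 12.0 and 9.21 CPM against 7.60, 6.25 and 5.53 CPM (log2 difference 0.61, SE 0.19, adjusted p = 0.0313, edgeR). In the libraries labelled as heat shocked it was at 9.61, 10.7 and 10.5 CPM against 4.04, 3.29 and 3.86 CPM, so that only those of ERR[cond.19-4] lay below their controls. Transcripts of the ERR1 allele can be counted as ERR in ERR[cond.2] females, and the call was lost with total counts as library size (adjusted p = 0.115) or without ERR[cond.2] control 2 or ERR[cond.19-4] control 2 or 3 (0.0951 to 0.111). CG7979 (8180923 to 8183369, plus strand), partly deleted in ERR2, was at 51.9, 45.2 and 47.6 CPM against 20.2, 17.2 and 14.7 CPM (log2 difference 1.47, SE 0.12, adjusted p = 1.3e-04, edgeR). Atg18a, the other gene that ERR2 reaches, had 0.31 (adjusted p = 0.0421, edgeR), a call lost by DESeq2, with total counts as library size, with the replicate number as a block and without any 1 library other than ERR[cond.2] control 1.

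Other genes near ERR were also examined. CG7387 was at 7.49, 6.50 and 7.49 CPM against 0.0439, 0.191 and 0 CPM (log2 difference 6.40, SE 0.48, adjusted p = 8.0e-05, edgeR). It lies within MED24 on the opposite strand, and MED24 was not called (0.23). Since the sources used here do not give the strand setting of the counting, reads of overlapping genes may be mixed. CG32364 was higher (2.22), mthl7 was higher (2.07), and CG8012 was lower (−1.49). RecQ4 (−0.12), 7383 bp from ERR, and Nmt (−0.00), 4932 bp from it, were not called.

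Called genes were spread over all major chromosome arms, with 41.2% of the genes tested on X and 43.8% on 3L at the ends of the range, while 25.6% of 82 genes were called on chromosome 4. Runs of at least 3 neighboring tested genes, all called in the same direction with at least 2-fold differences, numbered 41, of which 33 were higher and 8 lower, and they held 145 genes. The longest, on 2L from 13963507 to 13983269, held 8 genes in 19.8 kb: NimB1, NimB2, NimB3, NimB4, NimB5, NimC1, Cyp28a5 and NimC2. A run of 6 genes on 3R from 28870606 to 28887709, from CG33203 to CG14526, was higher in both pairs of groups and holds 5 neprilysin-like genes. Lower runs included the Vm26A cluster on 2L, the chorion clusters on 3L and X, and Jon25Bi, Jon25Bii and Jon25Biii. Among families by predicted domain, trypsin-like genes were higher in 67 (45.3%) and lower in 31 (20.9%) of 148, beside 22.1% and 20.4% of all genes. Sugar transporters were higher in 21 and lower in 5 of 46, and RNA recognition motif genes lower in 34 and higher in 5 of 92.

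The libraries labelled as heat shocked gave a further comparison of the stocks. Heat shock was meant to excise ERR. The level of ERR, however, was not lower in those of ERR[cond.2] than in its controls (9.61, 10.7 and 10.5 CPM after heat shock). Transcripts of the ERR1 allele can be counted as ERR, and the heat-shocked and control libraries were scaled separately. The summed glycolysis list was at 1395, 1488 and 1511 CPM in heat-shocked ERR[cond.2] libraries against 5752, 5610 and 5758 CPM in their controls. In ERR[cond.19-4] the list was at 2268, 2427 and 2108 CPM against 6736, 6661 and 6995 CPM. How far ERR was lost was not tested. Between the heat-shocked groups 1647 of 9770 genes (16.9%) were called, 1007 (10.3%) higher and 640 (6.55%) lower in ERR[cond.2] females. Of 4097 genes called between controls and tested in both comparisons 1279 (31.2%) were called in the same direction, which is 78.4% of the 1631 genes called between heat-shocked groups and tested in both, and 6 in the opposite one. The sign was the same for 3736 of the 4097. Of the genes at least 4-fold higher between controls 280 of 387 were called again, with a median log2 difference of 2.98 between controls and 1.88 between heat-shocked groups, and of those at least 4-fold lower 25 of 39. These numbers depended on single libraries. Without heat-shocked ERR[cond.19-4] library 1, 2 or 3 the shared calls were 386, 367 and 601, and without heat-shocked ERR[cond.2] library 1 they were 2112.

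**Figure D4:**
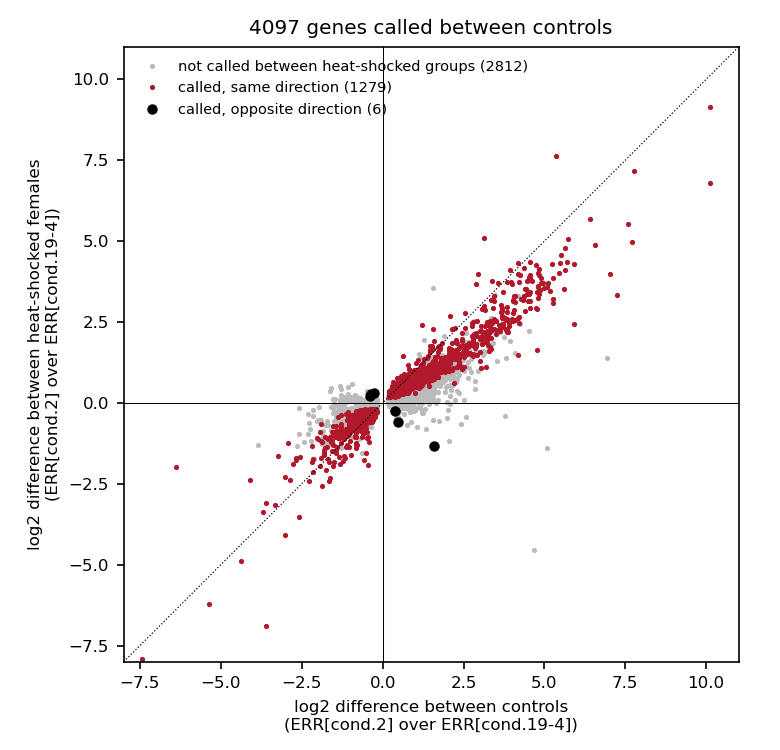
Log2 difference (ERR[cond.2] over ERR[cond.19-4]) between heat-shocked females against that between controls, for 4097 genes called between controls and tested in both. Red points (1279) were called in the same direction, black points (6) in the opposite direction and gray points were not called between heat-shocked groups, and the dotted line marks equal differences. Most points lie in the quadrants of equal sign, and most genes far to the right lie below the dotted line.

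The difference of the stock difference, tested in one edgeR fit of all 12 libraries with 10029 genes, was called for 4 genes, Gapdh2, Tpi, Pfk and GstD2, all more negative in heat-shocked females, while 2155 had an unadjusted p under 0.05. DESeq2 called 488. Without heat-shocked ERR[cond.2] library 3 edgeR called 465, without ERR[cond.2] control 2 or 3 it called 44 and 59, and without any 1 other library 2 to 6. A gene called between controls and not between heat-shocked groups is therefore not shown to differ between the settings.

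The 3 ERR[cond.2] controls were not alike. Among the 408 genes at least 4-fold higher, control 1 was the highest of the 3 for 342 and control 2 the lowest for 289. The median coefficient of variation of these genes was 33.9% among ERR[cond.2] controls but 15.4% among ERR[cond.19-4] controls. The summed fat body list was at 15002, 5532 and 11208 CPM against 1973, 2153 and 2415 CPM, and the summed chorion list at 5956, 13780 and 10655 CPM against 20180, 26127 and 27137 CPM. Most of the fat body sum in ERR[cond.2] controls came from Tsf1. The library with the highest fat body sum was thus the one with the lowest chorion sum, but no ERR[cond.2] library reached the other stock. Without control 1, 400 of the 408 genes were still called and their median log2 difference was 2.71 in place of 3.01. Heat-shocked ERR[cond.2] libraries were as uneven, with library 1 the lowest for 362 of the 408 genes.

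**Figure D5:**
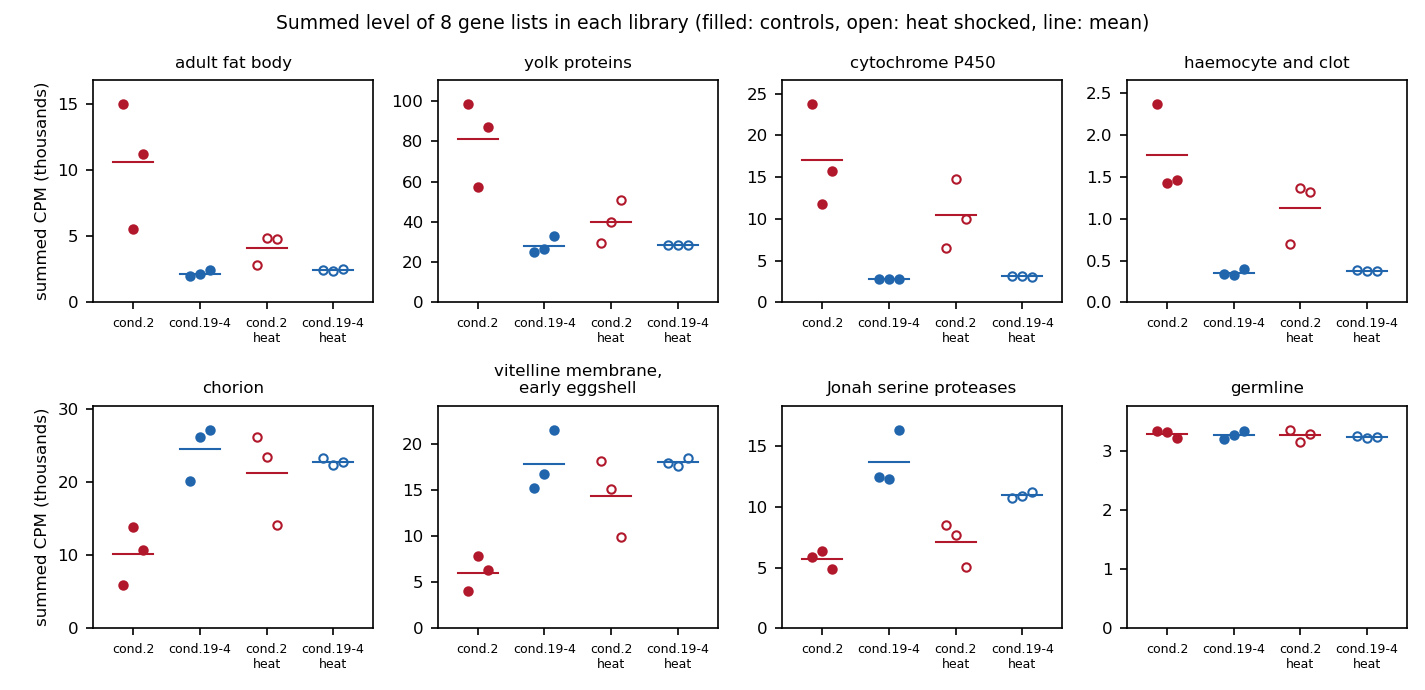
Summed CPM, divided by 1000, of 8 gene lists in each library, as points with group means as lines. Red marks ERR[cond.2] and blue ERR[cond.19-4], filled points are controls and open points heat-shocked females, and controls and heat-shocked libraries were scaled separately. Among controls the groups do not overlap for 7 lists and overlap for the germline list, and among heat-shocked females the differences are smaller for the yolk protein, fat body, chorion and Jonah lists. Most of the fat body sum in ERR[cond.2] controls is Tsf1.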

How the data were processed

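Poly(A) RNA of whole females was sequenced as paired reads of 150 bp. The authors aligned the reads with TopHat, counted them over genes with HTSeq and deposited the raw counts without normalization. Tool versions, the genome build and the strand setting were not given in the sources used here. Of 17558 gene identifiers 17252 were in the BDGP6 annotation, and 98.4% of these had its coordinates. The predicted domain families that came with the counts were used as labels only.

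Counts of the 6 control libraries were tested with edgeR 4.0.16 in R 4.3.3 (quasi-likelihood test, robust, TMM, filterByExpr), which left 9713 genes, with Benjamini-Hochberg adjustment over the whole set. The heat-shocked libraries were fitted alone, and the difference between both comparisons in 1 fit of 12 libraries. CPM were computed with TMM library sizes within each set of 6. The procedure was tested on simulated data. With 3 libraries against 3 precision is limited by the spread between libraries.

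The comparison, the 46 gene lists (1141 entries, of which only LysA was not found) and the naming rule were chosen with earlier results of these data known. Lists were described by counts and medians, without set tests. The patterns for P450 and UDP-glycosyltransferase genes were narrowed after the files were read, because they had matched cyclophilins and Uggt. The rule named the 12 called genes per direction with the largest difference, at least 1 CPM and no overlap between the groups. It also named genes at 0 in one group, and per list the 4 lowest p and 3 most abundant. Members of runs, the ERR locus with w and y, and the 5 lowest p per direction completed it. Nimrod, Idgf, neprilysin, serpin and Tep genes, other list members outside the rule and neighbors of ERR were chosen after their values were seen.

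As alternatives, the DESeq2 1.42.0 Wald test, DESeq2 size factors and total counts as library sizes were tried. The filter was varied to 1 count in all and to 10 counts per library. A joint fit of the 12 libraries, a block for the replicate number, stricter thresholds and the removal of each control library were also run. Leaving out heat-shocked libraries, and the alternatives for the difference between both comparisons, were chosen after seeing the data. Figures were drawn with Python 3.11.15 and matplotlib 3.10.9. Library totals ran from 17167432 to 20625801 counts.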

Additional observations from a re-analysis of the deposited data

Results flagged for a closer look

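For 4 genes the difference between the stocks itself differed between heat-shocked females and controls, as tested in 1 edgeR fit of all 12 libraries with Benjamini-Hochberg adjustment. Gapdh2 differed by −1.46 (SE 0.11, adjusted p = 2.4e-05): it was at 1240, 1269 and 1356 CPM in ERR[cond.2] controls against 1701, 1731 and 1815 CPM in ERR[cond.19-4] controls, and at 88.4, 94.6 and 90.5 CPM against 340, 382 and 307 CPM in the heat-shocked groups. Tpi differed by −0.78 (SE 0.10, adjusted p = 0.00709), at 469, 481 and 483 CPM against 637, 630 and 655 CPM in controls and 64.4, 67.5 and 67.0 CPM against 150, 171 and 140 CPM in heat-shocked females. Both encode glycolytic enzymes and kept their call by DESeq2 and without any 1 library.

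Pfk, of the same pathway, differed by −1.01 (SE 0.14, adjusted p = 0.0256), at 94.2, 116 and 113 CPM against 151, 145 and 166 CPM in controls and 12.9, 11.8 and 11.3 CPM against 34.0, 39.2 and 31.1 CPM in heat-shocked females. This call was lost without ERR[cond.19-4] control 1 or 2, heat-shocked ERR[cond.19-4] library 1 or 2 or heat-shocked ERR[cond.2] library 2 (adjusted p 0.0523 to 0.0825).

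GstD2 differed by −1.59 (SE 0.24, adjusted p = 0.0373). Its level in ERR[cond.2] females was 16.6 to 18.5 CPM in controls and 14.9 to 23.6 CPM after heat shock, whereas in ERR[cond.19-4] females it was 3.27 to 4.77 CPM in controls and 12.6 to 12.8 CPM after heat shock. This call was lost without ERR[cond.19-4] control 1 (adjusted p = 0.0693) or 3 (0.125), and without any 1 of heat-shocked ERR[cond.19-4] libraries 1, 2 and 3 or heat-shocked ERR[cond.2] library 2 (0.0919 to 0.141).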

How the results depend on the processing

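The 4128 calls between controls became 2503 at an adjusted p under 0.01 and 1155 with at least 2-fold differences. Leaving out 1 control library gave 3036 to 4153 calls, and each of those fits called 72.3 to 92.4% of the same genes. The runs of neighboring genes numbered 86 at a log2 difference of 0.5 in place of 41, and 10 genes in place of 4 had at most 1 count in every library of a group. Between heat-shocked groups edgeR called 432 to 2631 genes when 1 library was left out, and the calls shared with the controls were 367 to 2112. DESeq2 called 4089 genes between controls and 1903 between heat-shocked groups.

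The replicate number as a block gave 3749 calls between controls and 1231 between heat-shocked groups. Whether the numbers pair the libraries cannot be decided from 3 libraries per group, whose deviations from the group mean cancel out. Deviations of same-numbered libraries had r of 0.104, 0.098 and −0.067. ERR[cond.2] controls 1 and 2 correlated best with the library of their own number, and control 3 did not. Of 349 named genes called, 0 changed sign and 57 lost the call under at least 1 alternative. The number of libraries, 3 against 3, limits the precision of small differences. The spread is larger in ERR[cond.2] libraries, and the cause was not tested.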
